A study of Mus musculus with 6 samples.

Results

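The anaphase-promoting complex (APC/C) and the spindle assembly checkpoint were described through 31 mouse genes, chosen by gene name and role. All 31 were found among the 60193 genes of the FPKM matrix, of which 53700 carried an Ensembl identifier and 6493 were loci assembled from the reads. By role they comprised 14 APC/C subunits (Anapc1, Anapc2, Anapc4, Anapc5, Anapc7, Anapc10, Anapc11, Anapc13, Anapc15, Anapc16, Cdc16, Cdc23, Cdc26 and Cdc27). A further 3 were coactivators and inhibitors (Cdc20, Fzr1 and Fbxo5). Another 7 belonged to the Mad, Bub and Mps1 families (Mad1l1, Mad2l1, Mad2l2, Bub1, Bub1b, Bub3 and Ttk). There were 2 checkpoint-silencing factors (Mad2l1bp and Trip13) and 5 proteins of the kinetochore platform and RZZ module (Knl1, Zw10, Zwilch, Kntc1 and Spdl1). The KEGG annotation deposited with the values placed 20 of the 31 in Cell cycle, 17 in Oocyte meiosis, 16 in Progesterone-mediated oocyte maturation and 14 in Ubiquitin mediated proteolysis.

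RNA was sequenced from metaphase II (MII) oocytes of ICR mice aged 42 to 45 weeks, matured either in vitro (IVM, 3 samples) or in vivo (IVO, 3 samples). Each sample was a pool of 20 oocytes from 3 mice. For IVM, immature oocytes at the germinal vesicle stage were taken after PMSG priming, freed of cumulus cells and cultured for 12 h in M16 medium. For IVO, mice received PMSG and then hCG, and 14 h after hCG the ovulated oocytes were taken from the oviduct. Their cumulus cells were removed with the enzyme hyaluronidase. Hormone regime, presence of cumulus cells during maturation, timing and enzyme thus differed together with the site of maturation and cannot be told apart.

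The APC/C is a ubiquitin ligase that marks securin and cyclin B for destruction, which releases separase and lets chromosomes segregate. Anapc11 is its RING subunit and Anapc2 its cullin-like subunit, while Cdc20 and Fzr1 (also known as Cdh1) bring substrates to it. Unattached kinetochores load Mad2l1 onto Mad1l1, and Mad2l1, Bub1b (BubR1) and Bub3 join Cdc20 in the mitotic checkpoint complex that holds the APC/C back. In oocytes these proteins time the exit from meiosis I, Fzr1 helps to keep the germinal vesicle intact beforehand, and errors of chromosome segregation become more frequent with maternal age. Maturing oocytes transcribe little, and stored mRNAs are read or degraded in step with the length of their poly(A) tails.

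FPKM counts fragments relative to the length of the transcript and to the mapped fragments of the library. Levels of different genes can be compared only as far as the length used holds for each gene. The definition of the deposited lengths is not given in the sources used here. Comparisons between samples also depend on how the libraries are scaled. Changes are given as log2FC, the difference IVO minus IVM on the log2(FPKM + 1) scale, with a 95% confidence interval (CI) from limma and a p-value adjusted over the 18818 genes whose FPKM averaged 1 or more over the 6 samples. A differentially expressed gene (DEG) had an adjusted p-value under 0.05 and |log2FC| of at least 1. The p-values set the difference between groups against the spread between 3 pools per group, with each gene's variance drawn toward a trend over all tested genes. A level is an average over a pool, in which less RNA per oocyte and fewer contributing oocytes cannot be told apart. Whether the length of the poly(A) tail affected how much of an mRNA entered the cDNA was not tested.

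The IVM libraries summed to 1826738 to 2111776 FPKM and the IVO libraries to 1560813 to 1643682. Inferred depths were 16400000 to 19300000 fragments in IVM and 17850000 to 18150000 in IVO, with mean fragment lengths of 204 to 214 and 250 to 264 bases. All 9 oocyte markers were present, with summed levels, carried mainly by Oosp1 and Dppa3, of 19677 to 26076 FPKM in IVM and 20192 to 22855 in IVO. Of the 9, 4 were DEGs lower in IVO, namely Zp1, Zp2, Zp3 and Nlrp5 with log2FC of -2.43, -3.69, -3.13 and -1.99, and Bmp15 was lower with -0.98 (limma adjusted p = 0.012). Of 10 cumulus and granulosa markers 2 (Cyp19a1 and Fshr) reached 1 FPKM in any sample and Amh was listed at 0 in all 6, with sums of 23.95 to 33.59 in IVM and 30.35 to 35.53 in IVO. Of 6 theca and stroma markers only Dcn reached 1 FPKM (sums of 2.21 to 2.42 and 1.25 to 1.56). The 5 blood markers summed to 0 to 0.77 FPKM in IVM and 1.05 to 19.8 in IVO, the highest being IVO 3 with 15.67 FPKM of Lyz2; the part of these markers in the results was not tested.

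The 3′ ends of 8 members are shown, because oocytes regulate stored mRNAs through these ends. They are 3 members that were lower in IVO and hold a poly(A) signal, and 5 that did not pass. These 5 were picked because a cytoplasmic polyadenylation element lies in the printed stretch, as it also does in Cdc16, which is not shown. The 8 ends therefore give no comparison of the groups. Of the other abundant members that did not pass, Cdc27 and Fbxo5 hold the element further upstream. Anapc15 and Anapc16 hold neither motif in the last 100 bases. The letters come from the GRCm39 genome at the ends of the GENCODE M39 canonical transcripts, and capitals mark the poly(A) signal (AATAAA) and, where present, the cytoplasmic polyadenylation element (TTTTAT or TTTTAAT).
Anapc13, chr9:102511409-102511436, plus strand: agatctttagcAATAAAtcaacactcaa
Anapc11, chr11:120498995-120499022, plus strand: tatgtaaaccaAATAAAccctttcctcc
Bub3, chr7:131178505-131178532, plus strand: cattaacaaacAATAAAaggaatctgca
Bub1b, chr2:118472038-118472065, plus strand: actgtgtaTTTTATAATAAAatagtttt
Mad2l1, chr6:66517946-66517973, plus strand: tgtAATAAAgaactcttaTTTTAATgtt
Cdc20, chr4:118290109-118290136, minus strand: tttaTTTTATtttttctAATAAAgttcg
Cdc26, chr4:62310596-62310623, minus strand: tgtgtTTTTATggtattAATAAActtct
Anapc10, chr8:80506220-80506247, plus strand: tttTTTTATatagtatcaaAATAAActg

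Most of the checkpoint and APC/C genes did not pass the test between IVM and IVO, and 5 were lower in IVO. They were the APC/C subunits Anapc13, Anapc11 and Anapc5, the coactivator Fzr1 and the checkpoint protein Bub3. After median-ratio scaling of the libraries only Anapc13 and Bub3 remained DEGs. After quantile normalization only Anapc13 remained a DEG lower in IVO. Only MII oocytes were sequenced, so a fall or rise during maturation was not measured. Of the 31 members, 30 passed the filter and were tested, and 5 were DEGs lower in IVO, 16.7% of those tested, against 17.9% of all tested genes. No member was a DEG higher in IVO, a call made for 0.606% of all tested genes. The count of members was therefore near the background, and it is the identity and size of the differences that is described here. Without the fold threshold the members called were the same 5, against 21.5% of all genes lower and 1.87% higher. At an unadjusted p under 0.05 there were 5 lower and 1 higher (Mad2l1). The median log2FC of the tested members was -0.12 and that of all tested genes was -0.30.

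**Figure D1:**
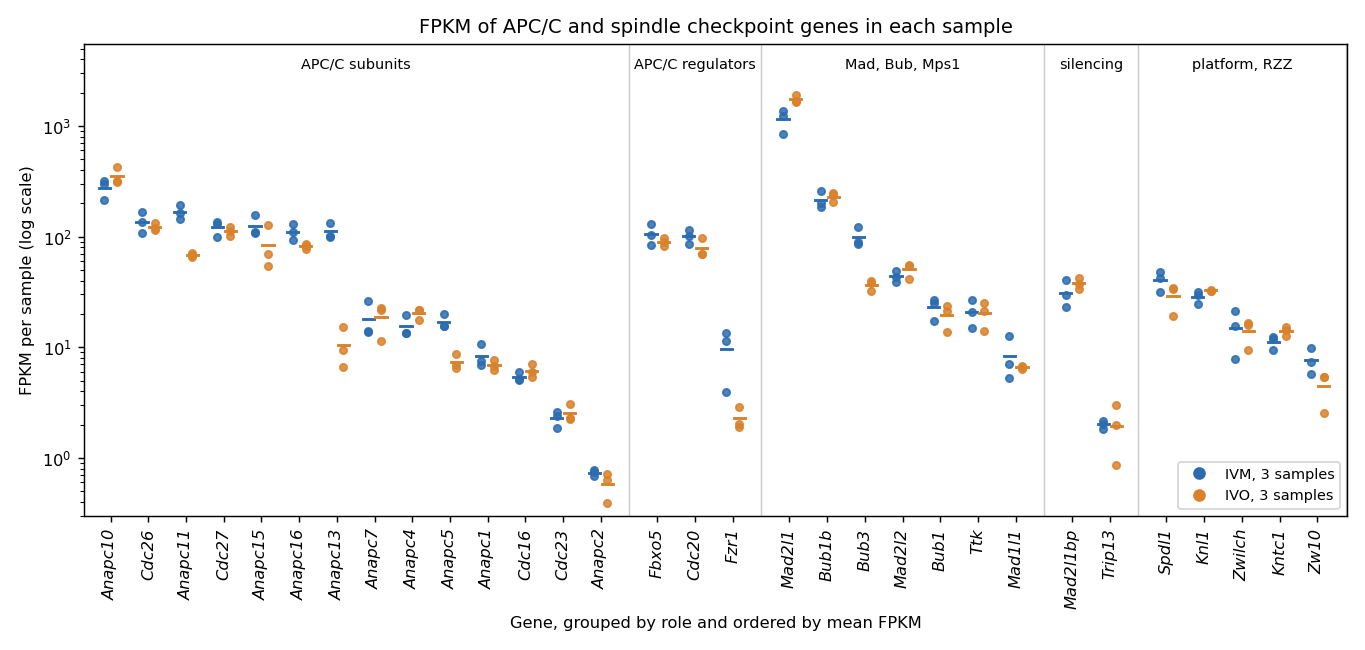
FPKM of the 31 members in each of the 3 IVM and 3 IVO samples on a log axis, grouped by role, 1 point per sample. Mad2l1 lies highest and Anapc2 lowest in both groups, and Anapc13 shows the widest gap between groups, with 98.93 to 133.86 in IVM against 6.56 to 15.33 in IVO.

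Transcript levels of the APC/C subunits, which occupy the assembled complex in fixed proportions, spanned a wide range in both groups. Group means lay between 0.737 and 278 FPKM in IVM and between 0.577 and 351 in IVO, with 7 and 6 of the 14 subunits at 50 or more and 4 and 5 under 10. Anapc10, which helps the coactivator to bind the degron of a substrate, had the highest FPKM of the subunits. Its FPKM was 297.19, 319.66 and 215.79 in IVM and 308.88, 315.36 and 427.69 in IVO. The groups overlapped (log2FC 0.34, CI -0.18 to 0.86, limma adjusted p = 0.311).

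Anapc13 (ENSMUSG00000035048, chr9:102503477-102533367, plus strand), a small subunit that steadies the scaffold of tetratricopeptide proteins, had the lowest log2FC of the members. Its FPKM was 98.93, 133.86 and 101.25 in IVM and 9.42, 6.56 and 15.33 in IVO. Every IVO sample was below every IVM sample, with means of 111 ± 19.5 and 10.4 ± 4.47 (SD, n = 3 each). The log2FC was -3.36 (CI -4.08 to -2.63, limma adjusted p = 0.00129), and the mean in IVO was 0.0937 of that in IVM. These levels correspond to roughly 40 to 992 fragments per library. Anapc13 had the lowest deposited gene length of the members, 589 bases, a value whose definition is not given in the sources used here (its canonical transcript has 727 bases). For this gene, with each library's trend with the deposited length removed, the log2FC was -2.77 (limma adjusted p = 0.00401). Its exons overlap 257 bases of Cep63 on the opposite strand, which was listed at 0.52 to 2.1 FPKM.

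Anapc11 (ENSMUSG00000025135, chr11:120488268-120499024, plus strand), the RING subunit that receives the ubiquitin-conjugating enzyme, was measured at 192.23, 143.1 and 163.04 FPKM in IVM. In IVO it was at 65.82, 70.63 and 68.2, all below the lowest IVM sample. The means were 166 ± 24.7 and 68.2 ± 2.41 (SD, n = 3 each), and the log2FC was -1.26 (CI -1.68 to -0.85, limma adjusted p = 0.00421). Alyref overlaps 606 bases of its exons on the opposite strand and was at 1.9 to 11.97 FPKM. Scaling of the libraries reduced the fold of Anapc11 below the DEG threshold, to -0.94 under median-ratio scaling (limma adjusted p = 0.0167).

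Anapc5 (ENSMUSG00000029472, chr5:122925100-122959448, minus strand), a scaffold subunit, was at 15.5, 15.68 and 19.86 FPKM in IVM. It was at 8.62, 6.93 and 6.49 in IVO, again without overlap. The log2FC was -1.11 (CI -1.60 to -0.62, limma adjusted p = 0.0109), and it was -0.999, short of the fold threshold, without IVM 3. The matrix also holds 17 other rows annotated with the Anapc5 protein, of which only Gm10482 reached 1 FPKM. Gm10482 was at 6.29, 4.64 and 5.05 in IVM and 6.29, 7.26 and 4.38 in IVO, with overlapping groups. How fragments were divided between these related sequences is not given in the sources used here, so the value of Anapc5 is uncertain to that extent.

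The other 9 tested subunits did not pass. Anapc16 was lower in every IVO sample (log2FC -0.42, limma adjusted p = 0.143), while Anapc1, Anapc4, Anapc7, Anapc15, Cdc16, Cdc23, Cdc26 and Cdc27 overlapped between groups. Cdc26, a short protein that stabilizes Cdc16 with a deposited length of 819 bases and a canonical transcript of 3070, was at 107.74, 165.14 and 134.26 FPKM in IVM and 115.08, 119.36 and 133.26 in IVO. The difference lay between -0.61 and 0.35 on the log2 scale. A difference as low as that of Anapc13 or Anapc11 thus lay outside the interval of Cdc26. Cdc27, a tetratricopeptide subunit that docks the coactivators, had an interval of -0.57 to 0.34. The intervals of Anapc7 and Anapc15 were wider, at -0.79 to 0.89 and -1.43 to 0.14. Cdc23 was at 1.85 to 3.05 FPKM and shares 2748 exonic bases with Kif20a on the opposite strand, which was at 21.71 to 29.75 FPKM, and no source used here states that strand was used in the counting.

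Anapc2, the catalytic partner of Anapc11, did not pass the filter. It was at 0.69, 0.74 and 0.78 FPKM in IVM and 0.39, 0.71 and 0.63 in IVO, about 19 to 42 fragments per library, which is above the 0.0555 to 0.0655 FPKM that 3 fragments amount to. The groups overlapped. In both groups the cullin-like subunit thus had the lowest FPKM of the 31 members. By FPKM the RING subunit stood 4th of 31 in IVM and 10th in IVO. These ranks rest on the length used for each gene.

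Of the 2 coactivators, Fzr1 was lower in IVO and Cdc20 did not pass. Fzr1 (ENSMUSG00000020235, chr10:81202056-81214352, minus strand), the Cdh1 coactivator that acts before and after the checkpoint-controlled step, was at 11.34, 3.95 and 13.44 FPKM in IVM. It was at 1.91, 2.9 and 2.04 in IVO. The groups did not overlap, but IVM 2 lay near the IVO samples, and the means were 9.58 ± 4.98 and 2.28 ± 0.538 (SD, n = 3 each). The log2FC was -1.56 (CI -2.54 to -0.58, limma adjusted p = 0.0351). This call was kept in 1 of the 6 fits that left out a sample, the fit without IVM 2 (limma adjusted p = 0.012), and was lost in the other 5 (0.0647 to 0.121).

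Cdc20, the coactivator that the checkpoint sequesters, was at 102.03, 85.96 and 113.92 FPKM in IVM and 69.91, 97.2 and 68.92 in IVO (log2FC -0.36, CI -0.86 to 0.14, limma adjusted p = 0.268). Fbxo5, the inhibitor Emi1, had the highest mean of the 3, with 83.76, 102.93 and 130.95 in IVM and 96.88, 90.1 and 81.51 in IVO (log2FC -0.22, CI -0.72 to 0.28, limma adjusted p = 0.499). Both genes overlapped between groups.

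**Figure D2:**
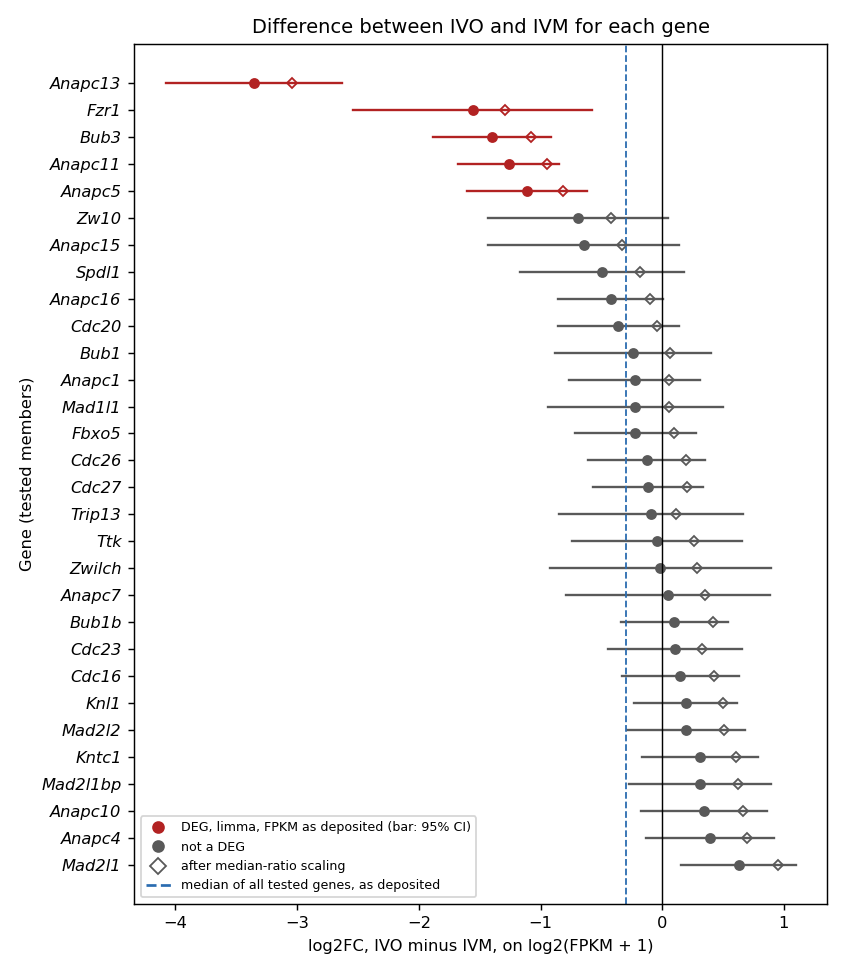
Log2FC (IVO minus IVM, on the log2(FPKM + 1) scale) of the 30 tested members with 95% confidence intervals from limma, ordered by log2FC, with DEGs marked. Open diamonds give the value after median-ratio scaling, and a dashed line gives the median of all tested genes as deposited. The 5 DEGs all lie below 0, between -1.11 (Anapc5) and -3.36 (Anapc13), and Mad2l1 has the highest value at 0.63.

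Among the genes of the mitotic checkpoint complex, Bub3 passed the test and Bub1b, Mad2l1 and Cdc20 did not, and differences between these genes were not tested. Bub3 (ENSMUSG00000066979, chr7:131161880-131178553, plus strand), the propeller protein that carries Bub1 and Bub1b to the kinetochore, was at 121.88, 86.53 and 88.88 FPKM in IVM. It was at 38.29, 32.38 and 39.41 in IVO, all below the lowest IVM sample. The means were 99.1 ± 19.8 and 36.7 ± 3.78 (SD, n = 3 each), with a log2FC of -1.40 (CI -1.88 to -0.91, limma adjusted p = 0.00489). Its partner Bub1b was at 201.14, 186.82 and 260.79 in IVM and 206.23, 246.44 and 236.96 in IVO. The groups of Bub1b overlapped, and its interval was -0.34 to 0.54.

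Mad2l1, the checkpoint protein that changes shape to capture Cdc20, had the highest level of all 31 members. Its FPKM was 1226.08, 1365.72 and 853.34 in IVM and 1658.33, 1671.57 and 1905.3 in IVO. Every IVO sample was above every IVM sample, with means of 1148 ± 265 and 1745 ± 139 (SD, n = 3 each), but the difference did not pass (log2FC 0.63, CI 0.16 to 1.10, limma adjusted p = 0.061). It passed the adjusted p-value in 3 of 12 other settings, all of them scalings of the libraries. There the log2FC was 0.95 (median ratio, limma adjusted p = 0.0328), 0.97 (same summed FPKM, adjusted p = 0.00816) and 1.02 (quantile, adjusted p = 0.00796). It did not pass with median-ratio scaling of Ensembl genes only, with the length trend removed, or in any of the 6 fits with a sample left out. The remaining Mad, Bub and Mps1 genes did not pass and overlapped: Bub1 and the kinase Ttk at group means of 19.5 to 23.1 FPKM, Mad1l1, the kinetochore anchor of Mad2l1, at 6.57 to 8.32, and Mad2l2 at 43.7 to 50.5.

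Checkpoint silencing and the kinetochore platform held no DEG. Mad2l1bp (p31comet), which with the ATPase Trip13 dismantles the checkpoint complex, was at 40.61, 29.62 and 22.91 FPKM in IVM and 33.74, 42.38 and 37.58 in IVO (limma adjusted p = 0.41). Trip13 itself was at 0.87 to 3.01 FPKM over the 6 samples. Spdl1 (Spindly), which links the RZZ module to dynein, had the highest mean of the platform genes over the 6 samples and in IVM (Knl1 was higher in IVO, at 32.6 against 29.0 FPKM), with 31.48, 42.1 and 48.17 in IVM and 33.29, 34.62 and 19.22 in IVO (log2FC -0.49, limma adjusted p = 0.262). Knl1, the scaffold that Bub1 and Bub3 bind, and Kntc1 of the RZZ module were higher in every IVO sample, with log2FC of 0.19 and 0.31 (limma adjusted p = 0.492 and 0.316). Zw10 of the same module was lower in every IVO sample (log2FC -0.69, limma adjusted p = 0.157), and Zwilch overlapped.

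Over the 30 tested members, groups did not overlap in 7 with IVO lower (against 32.6% of all tested genes) and in 3 with IVO higher (against 9.62%), and they overlapped in 20. The median coefficient of variation over the 31 members was 19.9% in IVM and 15.3% in IVO. IVM 3 held the highest IVM value for 18 of the 31 members and IVM 2 the lowest for 15. The order of levels was similar at the top of both groups, with Mad2l1, then Anapc10, then Bub1b. In IVM the 8 mRNAs from Cdc26 down to Bub3 lay between 136 and 99.1 FPKM, and each of them differed from its neighbour by less than the SD of either.

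Of the 25 tested members that were not called, 14 kept 1 sign under the other settings that used all 6 samples. These were 11 positive members, and Anapc15, Zw10 and Spdl1, which were negative. The other scalings of the libraries and the removal of the length trend raised the median log2FC of all tested genes. A member positive as deposited therefore had little room to turn negative under them. Of the 11 positive members, Anapc7 and Cdc23 turned negative in at least 1 fit with a sample left out (lowest log2FC -0.1211 and -0.0023). Another 11 members, negative as deposited, turned positive under at least 1 setting with all 6 samples. As deposited, 19 of the 30 log2FC were negative and 11 positive. Median-ratio scaling shifted the median of all tested genes from -0.30 to -0.04 and gave 10 negative and 20 positive members, and quantile normalization shifted it to 0.17 and gave 8 and 22. The 5 DEGs were negative under all 12 other settings. At an adjusted p-value under 0.05, limma called 4 members lower and 1 higher after median-ratio scaling. After quantile normalization it called 3 lower (Anapc11, Anapc13 and Bub3) and 6 higher (Anapc4, Anapc10, Knl1, Kntc1, Mad2l1 and Mad2l2), of which Anapc13 and Mad2l1 also passed the fold threshold.

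**Figure D3:**
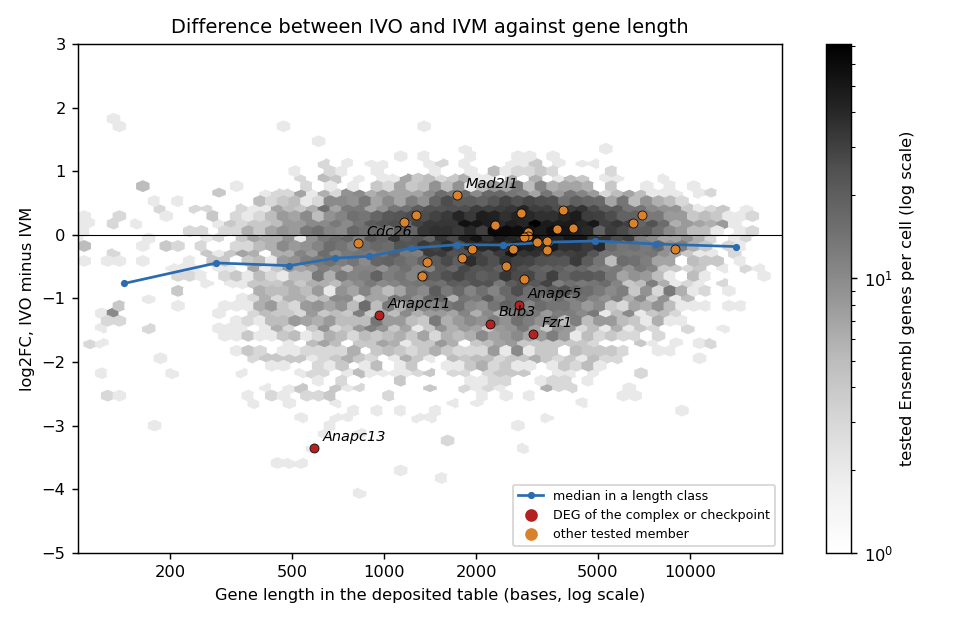
Log2FC of the tested Ensembl genes against the deposited gene length in bases (log axis), with the members marked. Of the 3 members under 1000 bases, Anapc13 and Anapc11 lie below -1 and Cdc26 is at -0.13.

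Genes of low deposited length were lower in IVO more often than long ones across the transcriptome. Among tested Ensembl genes under 1000 bases the median log2FC was -0.39 and 22.34% were DEGs lower in IVO, against -0.12 and 11.06% at 4000 bases or more. Of the 3 members under 1000 bases, 2 were DEGs (Anapc11 and Anapc13). The deposited length of Anapc11 was 962 bases, whereas its canonical transcript has 3545. For Bub3 the 2 lengths were 2218 and 7274 bases. The mean fragment length was also greater in the IVO libraries, as given above, and its part in these values was not tested. With the length trend of each library removed, Anapc13 and Bub3 remained DEGs, Anapc11 and Anapc5 kept an adjusted p-value under 0.05 (limma, 0.0174 and 0.0217) and Fzr1 did not (0.0543).

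Ratios formed within a sample do not depend on a linear scaling of the library, but their size rests on the length used for each gene. The pairs below were picked after their values were seen, so they are descriptions without a test. Bub3 was at 0.606, 0.463 and 0.341 of Bub1b in IVM and at 0.186, 0.131 and 0.166 in IVO. Anapc13 stood at 0.828 ± 0.0834 of Cdc26 in IVM and 0.0839 ± 0.0301 in IVO (SD, n = 3 each). Anapc11 stood at 0.617 ± 0.156 of Anapc10 in IVM and 0.199 ± 0.0345 in IVO. Fzr1 was at 0.111, 0.0460 and 0.118 of its alternative Cdc20 in IVM and at 0.0273, 0.0298 and 0.0296 in IVO. The ratio of Mad2l1 to Cdc20, its target, was 12.0, 15.9 and 7.49 in IVM and 23.7, 17.2 and 27.7 in IVO. For all 5 ratios the groups did not overlap, whereas that of Mad2l1 to Mad1l1 did (97.3, 260.1 and 120.2 in IVM and 252.4, 260.8 and 283.1 in IVO).

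**Figure D4:**
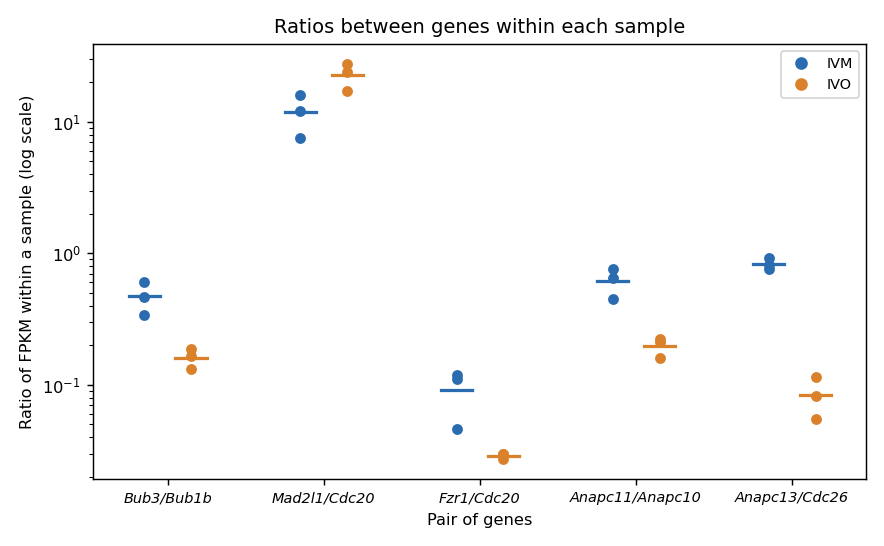
Ratio of FPKM between 2 members within each sample, on a log axis, with 1 point per sample for 3 IVM and 3 IVO samples. Anapc13 to Cdc26 shows the widest separation, with 0.754 to 0.918 in IVM against 0.0550 to 0.115 in IVO.

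The 3′ ends shown above were compared with those of other genes. The cytoplasmic polyadenylation element, bound by CPEB proteins, and the poly(A) signal (AATAAA or ATTAAA) were searched on the sense strand in the last 100 bases of each canonical transcript. The element was found in 9 of the 31 members (Anapc10, Bub1b, Cdc16, Cdc20, Cdc26, Cdc27, Fbxo5, Mad2l1 and Spdl1) and in none of the 5 DEGs. Its share among all DEGs lower in IVO was not counted, and 5 genes are too few to link it to a difference between groups. In Cdc16 the letters of the element overlap those of the signal, and in Cdc20 the 3′ untranslated region is itself shorter than the window. A poly(A) signal was found in 19 members and in 3 of the 5 DEGs (Anapc11, Anapc13 and Bub3). Among the 30 members whose untranslated region had at least 100 bases, 26.7% held the element, against 19.3% of 9793 tested protein-coding genes. A poly(A) signal was held by 18 of these 30 members, against 80.1% of the protein-coding genes. The median log2FC was -0.01 with the element and -0.22 without it among these members, and -0.02 and -0.19 among the protein-coding genes. An annotated end need not be the one used in oocytes, and a match of letters is not a bound site.

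Other genes of the pathway, taken from a list of 33, also gave a share of DEGs lower in IVO near the background. Of the 32 tested, 6 were DEGs lower in IVO (18.8%, against 17.9% of all tested genes), none was a DEG higher, and the median log2FC was 0.10. Ube2c, the conjugating enzyme that starts ubiquitin chains on the APC/C, was at 484.95, 321.49 and 364.14 FPKM in IVM and 105.83, 101.49 and 125.76 in IVO (log2FC -1.79, limma adjusted p = 0.00213). Of the chromosomal passenger complex, the kinase Aurkb was lower in IVO (log2FC -1.92, limma adjusted p = 0.00223), as was Birc5, or survivin (log2FC -1.61, adjusted p = 0.00202). The other genes of that complex on the list did not pass: Incenp had a log2FC of -0.20, Aurkc of -0.00, with an interval of -0.74 to 0.74, and Cdca8 of 0.41 with every IVO sample above every IVM sample (limma adjusted p = 0.549, 0.998 and 0.225). Birc5 was at 858 to 1181 FPKM in IVM and 293 to 364 in IVO.

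Espl1 (separase), the protease released by the APC/C, had a log2FC of -1.63 (limma adjusted p = 0.0141), whereas Pttg1 (securin), its inhibitor and an APC/C substrate, was at 11443.65 to 13579.03 FPKM in IVM and 12100.18 to 14223.78 in IVO and did not pass (adjusted p = 0.602). At the outer kinetochore Spc24 and Nsl1 were lower in IVO, with log2FC of -1.77 and -1.18 (limma adjusted p = 0.0112 and 0.0281). Nsl1 was at no more than 2.05 FPKM in any sample. Espl1 lost its call without IVM 1 or IVM 3 (limma adjusted p = 0.0598 and 0.0566). Nsl1 lost its call without IVM 1, IVM 3, IVO 1 or IVO 3 (limma adjusted p = 0.0592 to 0.079). Singled out after their values were seen, 4 genes (12.5% of the 32, against 1.87% of all tested genes) were higher in IVO at an adjusted p-value under 0.05 and below the fold threshold: Spc25, the direct partner of Spc24, with a log2FC of 0.94, Dsn1 with 0.80, the kinase Cdk1 with 0.78 and the conjugating enzyme Ube2d3 with 0.65 (limma adjusted p = 0.0192, 0.0125, 0.0345 and 0.0132).

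**Figure D5:**
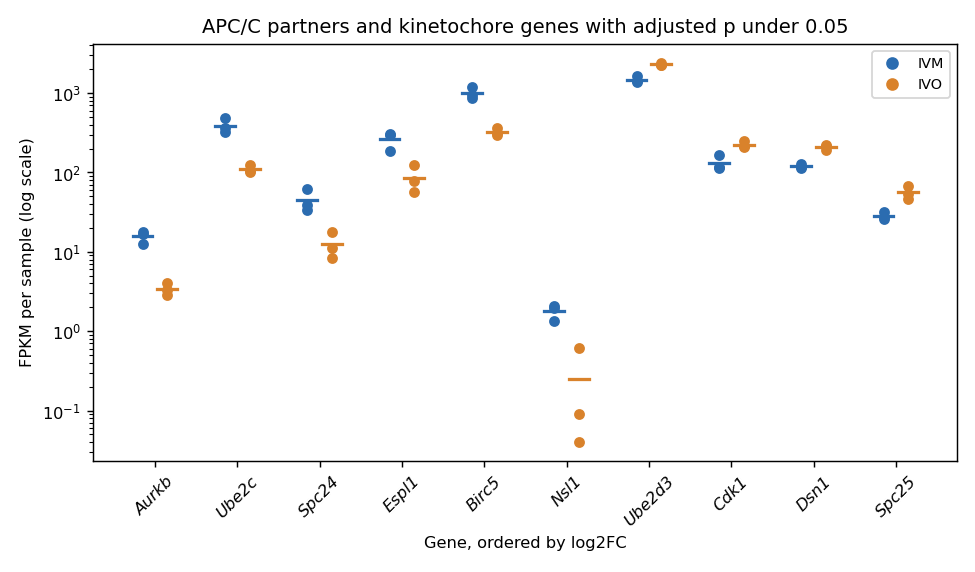
FPKM in each IVM and IVO sample, on a log axis, of the pathway genes outside the 31 members with an adjusted p-value under 0.05 (limma). These are 6 genes lower and 4 higher in IVO, ordered by log2FC, and the other genes of the list are not shown. Of the 32 tested, Aurkb has the lowest log2FC (IVO minus IVM) at -1.92 and Spc25 the highest at 0.94.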

How the data were processed

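The authors made cDNA with the SMART-Seq v4 kit, filtered paired-end reads with SeqPrep and Sickle, and deposited 1 FPKM value per gene and sample. The submitters' processing notes name HISAT2 2.1.0, RSEM 1.3.3, DESeq2 1.24.0 and GRCm39; the annotation release is not given in the sources used here. Deposited group means and annotation columns were not tested.

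FPKM are not counts, so limma 3.58.1 in R 4.3.3 (lmFit, eBayes with trend) was fitted to log2(FPKM + 1) as deposited, for 18818 genes averaging 1 FPKM or more, with the group alone in the model. P-values were two-sided and adjusted by Benjamini-Hochberg over all tested genes. The fit was tested on simulated data. Exact permutation of 3 samples against 3 gives no p-value below 0.1 and was not used. Depth was read from the spacing of low FPKM values (77.3% to 79.7% came out whole, within 0.15 of a fragment), so fragment numbers are approximate and cover counting error only. Coordinates and 3′ ends came from GRCm39 with GENCODE M39. Python 3.11.15, pandas 2.3.3, numpy 2.4.6 and matplotlib 3.10.9 were used for tables and plots.

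Every member was named, with all sample values for those at an adjusted p-value under 0.05 and for the highest mean of each role, and DEGs of the pathway list were named. Members, lists and tests were chosen with earlier results of these data known. The alternatives were another pseudocount (0.1), no filter or a minimum mean of 5 FPKM, 3 scalings, eBayes without trend, the replicate block, removal of the length trend (lowess, span 0.3), Ensembl genes only, and each sample left out.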

Additional observations from a re-analysis of the deposited data

How the results depend on the processing

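The 5 members that were DEGs lower in IVO became 2 under median-ratio scaling, 1 under quantile normalization, 2 with the same summed FPKM, 2 once the length trend was removed and 1 when the replicate block was added to that. Quantile normalization also made 1 member a DEG higher. Leaving out 1 sample gave 3 to 5 members lower (3 without IVM 3) and 0 higher. DEGs higher among the other pathway genes, 0 as reported, were 3, 5 and 3 under median-ratio, quantile and same-sum scaling, 3 with the length trend removed, 1 with that and the block, 2 with Ensembl genes only and median-ratio scaling, and 0 to 1 with a sample left out (1 without IVM 1 and 1 without IVO 2); DEGs lower were 4 to 6 with a sample left out. Over all tested genes, 3366 DEGs were lower and 114 higher. These counts were 2130 and 385 (median ratio), 1580 and 1097 (quantile), 2131 and 394 (same sum), 1511 and 557 (length trend removed), 741 and 188 (length trend removed, replicate block) and 1416 and 194 (Ensembl genes, median ratio), with 1972 lower for Ensembl genes only. The cause was not tested, except that the last settings tested 13154 genes. With a sample left out they were 2276 to 3174 and 82 to 130. The replicate block alone left 4 members (Fzr1 lost its call) and 2899 and 92 genes. No source used here states that the replicate numbers pair the samples. Deviations of same-numbered samples correlated at -0.06, -0.02 and -0.11, which with 3 samples per group cannot settle whether they were paired.

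Anapc13 was a DEG under all 12 other settings (log2FC -3.47 to -2.77) and in all 6 fits with a sample left out, Bub3 under 10 and 6, Anapc11 under 7 and 6, Anapc5 under 6 and 5, and Fzr1 under 5 and 1. At an adjusted p-value under 0.05 alone, Anapc11 was called in 11 of the 12 settings and Anapc5 in 9. Nsl1 was a DEG in 6 of 11 other settings. Depth limits what can be said of genes near 1 FPKM, such as Anapc2 with 19 to 42 fragments per library.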
